A study of Homo sapiens with 4 samples.

Results

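ETV1, ETV4 and ETV5, the transcription factors of the PEA3 branch of the ETS family, were followed in HUT78, a human T-cell line established from a cutaneous lymphoma, in the presence and absence of the compound CSH71. The members were all probe sets that the platform annotation assigns to these 3 symbols, which gave 3 of 53617 probe sets, 1 for each gene, and 3 of the 14884 genes tested. There were 2 untreated samples and 2 samples treated with CSH71 at 250 nM for 30 h, each on 1 array. The titles of the treated samples carry the tag NCI, and those of the untreated samples do not. All 4 were the same line grown in IMDM with serum. The untreated group is described as untreated, with no mention of a vehicle. The series presents CSH71 as a chemical aimed at the part of p38γ that binds lipid, where p38γ is the kinase encoded by MAPK12. Total RNA was labelled for Affymetrix whole-transcript arrays, and the deposited values are linear intensities. Nothing in the labels places the replicates in separate cultures, and the p-values therefore reflect the spread of these samples alone, which may be technical.

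ETS factors share a DNA-binding domain that reads a GGAA core. The PEA3 factors are activators that lie downstream of receptor tyrosine kinases and the RAS-ERK cascade: ERK signalling raises their transcription by lifting the repressor CIC from their promoters, and it stabilises the proteins against the ubiquitin ligase COP1 and its adaptor DET1. ETV1, ETV4 and ETV5 are best known from branching organs, neurons, prostate cancer and gastrointestinal stromal tumours, whereas T cells rely mainly on other ETS factors such as ETS1, ELF1 and FLI1. Because they are read out together with DUSP4, DUSP6 and the Sprouty genes, their RNA is widely used as a measure of ERK output.

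The octamer that CIC recognises is shown because CIC is the known repressor of these genes and was itself measured. The RefSeq promoter table (GRCh38.p14) matched ETV1 of the 3 genes, with 6 start sites, and 13 of the 18 other ERK output genes. The CIC octamer, searched as TGAATGAA or TGAATGGA on both strands, was found in 1 of the 6 ETV1 promoters, each 300 bases long. Of all 35116 promoters in the table, 2.63% hold it. The 250 bases upstream of that ETV1 start, chr7:13991426-13991675 on the minus strand, are printed 5′ to 3′ with the octamer in capitals. The octamer begins 125 bases before the start.
ETV1: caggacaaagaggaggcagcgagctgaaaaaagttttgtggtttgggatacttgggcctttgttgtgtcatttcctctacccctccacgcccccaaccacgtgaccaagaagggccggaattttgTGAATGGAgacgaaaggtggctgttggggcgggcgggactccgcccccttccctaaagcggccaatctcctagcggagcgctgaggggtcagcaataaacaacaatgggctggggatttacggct
EPHA2: cacgcagggcaTGAATGAAcaggagtcggt
The EPHA2 line is the 30 bases around its octamer, chr1:16156085-16156114 on the minus strand, which begins 34 bases before that start. EPHA2 encodes an ephrin receptor and is, like ETV1, an ERK output gene. Of the 13 other ERK output genes with a promoter in the table, 3 had the octamer, EPHA2, SPRED3 and SHC4. Only EPHA2 of these has intensities here, as SPRED3 and SHC4 were not analysed. Of all genes in the table, 3.22% had the octamer. The list was drawn up to hold genes that CIC represses beside ERK output genes, so this count is no independent evidence on the octamer. The same 6 ETV1 windows had 0 matches to the AP-1 heptamer (TGACTCA or TGAGTCA, in 4.95% of all promoters), 0 to the cAMP response octamer TGACGTCA (1.85%) and 0 to the ETS heptamer CCGGAAG (10.3%), each on both strands. A match describes these letters and is not a site of binding.

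None of the 3 factors passed the test for a difference between CSH71-treated and untreated cells. They were compared with limma on log2(intensity + 16), a scale that understates the change of dim genes, and a gene was called at a Benjamini-Hochberg adjusted p under 0.05 over all 14884 genes. Of the 3 factors 0 were called and 0 had an unadjusted p under 0.05, where 0.0470% of all genes were called (0.0403% higher and 0.00672% lower) and 5.11% had such an unadjusted p. ETV1 alone had arrays that did not overlap between the groups, with both treated arrays higher. Of all genes, 31.6% did not overlap, 15.0% with the treated arrays higher and 16.6% with them lower.

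ETV1 is fused to other genes in some prostate cancers and sustains gastrointestinal stromal tumours. Its intensity was 118 and 150 in untreated replicates 1 and 2, and 164 and 152 in CSH71 replicates 1 and 2. Both treated arrays lay above both untreated ones, but untreated replicate 2 and CSH71 replicate 2 were only 2.42 units apart. The group means were 134 ± 22.3 and 158 ± 8.53 (SD, n = 2 per group). On the log2 scale the difference was 0.22 ± 0.19 (SE), and its 95% interval ran from -0.22 to 0.66 (limma adjusted p = 0.999). The interval corresponds to 0.861-fold to 1.58-fold on the fitted scale. Without untreated replicate 1 the log2 value was 0.07, and without untreated replicate 2 it was 0.38, so its size rested on which untreated array was used.

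ETV4 encodes the factor from which the PEA3 name comes. It had 129 and 193 in the untreated arrays and 165 and 148 in the treated ones. The treated arrays lay between the untreated arrays. The means were 161 ± 45.3 untreated and 157 ± 12.2 treated. On the log2 scale the difference was -0.01 ± 0.22, and its 95% interval ran from -0.53 to 0.51 (limma adjusted p = 0.999). The untreated arrays differed from each other by 0.53 on the log2 scale, more than did 88.6% of all genes. The treated arrays differed by 0.14. Its sign depended on the arrays used and on their scaling: it was -0.28 without untreated replicate 1 and 0.25 without untreated replicate 2, and it turned positive after quantile normalization (0.023) or median centring (0.0083).

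ETV5 encodes the factor that maintains spermatogonial stem cells and acts with ETV4 in branching kidney and lung. It was the dimmest of the 3 probe sets, at 37.2 and 37.1 in the untreated arrays and 24.6 and 50.2 in the treated ones. The untreated values lay between the treated values. The means were 37.1 ± 0.0495 and 37.4 ± 18.1, and the log2 difference was -0.03 ± 0.25, with its 95% interval from -0.63 to 0.56 (limma adjusted p = 0.999). The mean intensity and the mean log2 value thus differed in sign. The treated arrays were 2.04-fold apart on the linear scale and 0.71 apart on the log2 scale, a wider gap than in 94.9% of all genes. The untreated arrays were 0.00190 apart, a narrower gap than in all but 0.504% of genes. The log2 fold change was 0.32 without CSH71 replicate 1 and -0.39 without CSH71 replicate 2.

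**Figure D1:**
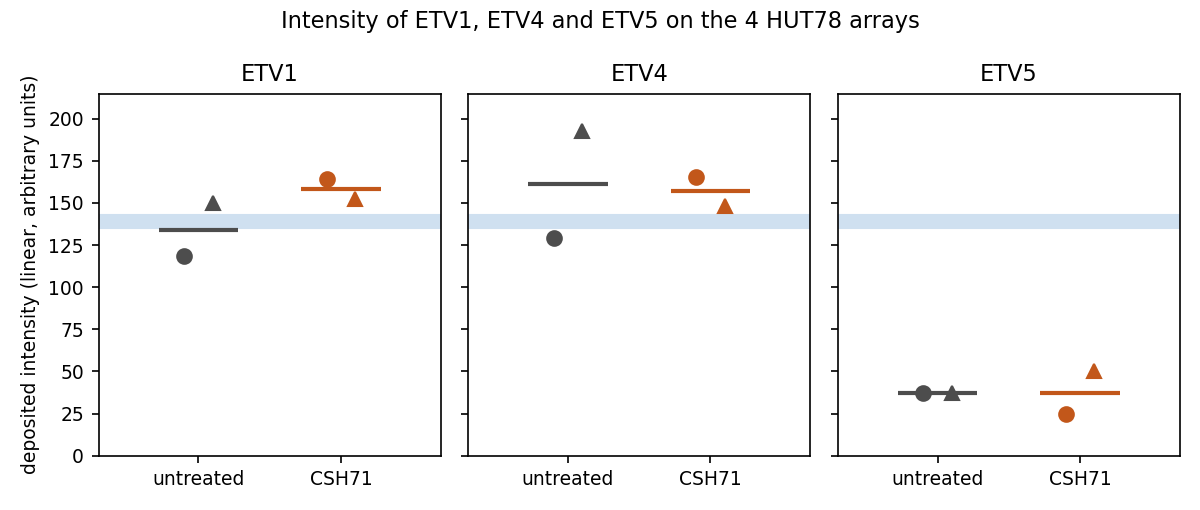
Deposited linear intensity of each factor on each array, with circles for replicate 1, triangles for replicate 2, bars for group means and a blue band for the range of the array medians over the genes tested (135 to 143). The ETV1 treated points sit just above the untreated ones, the ETV4 treated points lie inside the untreated spread, and the ETV5 treated points fall on either side of the untreated pair.

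The intervals of the 3 factors bound the change of the measured signal at less than 2-fold in either direction on the log2(intensity + 16) scale. With a pseudocount of 1, which compresses dim probe sets less, that of ETV5 widened to -1.03 to 0.88. The values carry no background level, so the intervals do not bound the change of the RNA. In a bulk sample, a change in the share of cells that express a gene and a change in RNA per cell cannot be told apart.

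In absolute intensity, the probe sets of ETV1 and ETV4 lay near the middle of the arrays and that of ETV5 lay low. Over the 4 arrays, ETV1 stood between the 44.7th and 54.2nd percentile of the genes tested, ETV4 between the 47.2nd and 57.3rd, and ETV5 between percentiles 8.81 and 18.8. The median gene had an intensity of 136 to 143 in the untreated arrays and 135 to 139 in the treated ones. Probe sets respond differently to the same amount of RNA, so no order of RNA abundance among the 3 factors is read from these values, and none is called present or absent.

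The labelled cell type was checked with T-cell markers. Of 10, 7 were measured, and LCK, the proximal kinase of the T-cell receptor, had mean intensities of 1080 untreated and 1107 treated. ZAP70, the kinase that follows it, had 1724 and 1703, CD5 had 1766 and 2043 and CD4 428 and 412, while CD2 was dim at 79.2 and 73.0 and CD28 at 75.1 and 86.0. CD3D, CD3E and CD3G were not analysed here. The epithelial marker EPCAM was bright in both groups at 2062 and 2056, with KRT18 at 527 and 513 and KRT8 at 105 and 104. The B-cell markers BLK, CD22 and PAX5 were at 333 and 264, 245 and 226, and 187 and 165. Above the median gene lay 5 of 7 measured T-cell markers and 3 of 3 B-cell markers. So did 2 of 3 epithelial and fibroblast markers and 1 of 6 monocyte markers. Of the 12 markers of cells other than T cells, limma called 0 between the groups, against 0.0470% of all genes. At an unadjusted p under 0.05 there were 0, against 5.11%. That test compares treated with untreated arrays and cannot show what cell type both share.

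The other ERK output genes included 1 that was called. Of 18 listed, 12 were measured: DUSP4 rose, 0 fell and 11 did not pass, with 3 at an unadjusted limma p under 0.05, which 5.11% of all genes had. Their median log2 fold change was 0.05, against -0.01 over all genes and -0.01 over the 3 factors. The list's mean was 0.39, because DUSP4, EGR1 and DUSP6 lay far above the rest. DUSP4 was chosen for the list with its rise already known, and the whole list was chosen with earlier results of these data known. The places of DUSP4, EGR1 and DUSP6 in it, and the count of 3, are thus no independent evidence.

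DUSP4, a nuclear phosphatase that inactivates ERK and is itself induced by it, had intensities of 17.2 and 20.3 untreated and 156 and 128 treated. Its log2 fold change was 2.18 ± 0.18 (limma adjusted p = 0.0245). The call was lost after quantile normalization (limma adjusted p = 0.121), over all probe sets (0.226) and with a pseudocount of 1 (0.258). It was also lost with a crossed pairing of replicate numbers, chosen after seeing the data (0.109). With all 4 arrays kept, the limma adjusted p ran from 2.97e-14 to 0.258. The untreated values stood at percentiles 4.75 and 6.47 of the genes tested. The log2 fold change ran from 1.31 with a pseudocount of 64 to 2.85 with 1. The call was lost too without untreated replicate 1 (log2 fold change 2.12) or untreated replicate 2 (2.24). Without either untreated array, the lone untreated sample is assumed to vary like the treated ones, and 0 of all genes were called by limma in those fits (794 and 609 at an unadjusted p under 0.05), so the loss is not particular to DUSP4. DUSP6, the cytoplasmic ERK phosphatase, had 1172 and 1286 untreated and 2556 and 2333 treated, a log2 fold change of 0.98 ± 0.17. It did not pass over all genes (limma adjusted p = 0.515), but did after median centring (0.0453), with a prior that follows intensity (2.53e-20) and with a pseudocount of 64 (0.00851), from 2.53e-20 to 1 over its alternatives. EGR1, an immediate early factor, had 87.8 and 90.0 untreated and 300 and 303 treated (1.60 ± 0.16, limma adjusted p = 0.0516, from 4.63e-08 to 0.826 over its alternatives). Its other probe set gave 0.07. The lowest adjusted p given for each of DUSP4, DUSP6 and EGR1 came from a fit with an infinite prior, under which limma uses no gene-specific spread. In 4 of the 12 measured genes of the list, DUSP4, DUSP6, EGR1 and SPRY4, both treated arrays lay above both untreated arrays. In 1, EPHA4, both lay below. Of all genes, 15.0% lay above and 16.6% below in this way.

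The remaining 9 measured members of that list had log2 fold changes between -0.32 and 0.25. SPRY4, a Sprouty inhibitor of receptor signalling, had 74.1 and 57.2 untreated and 83.9 and 76.8 treated, a log2 fold change of 0.25 ± 0.19. SPRY2, of the same family, was at -0.32 ± 0.24. The CIC octamer gene EPHA2 was at 0.06 ± 0.26, with 35.3 and 68.2 untreated and 55.8 and 49.1 treated. EPHA4, another ephrin receptor, was at -0.20 and the adaptor SHC3 at 0.14. DUSP5, a further ERK phosphatase singled out after its values were seen, was at -0.04 in the probe set used but its other probe set read 21.2 and 21.1 untreated and 62.4 and 44.4 treated, which is 0.89. Which DUSP5 probe set follows the transcript was not tested.

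**Figure D2:**
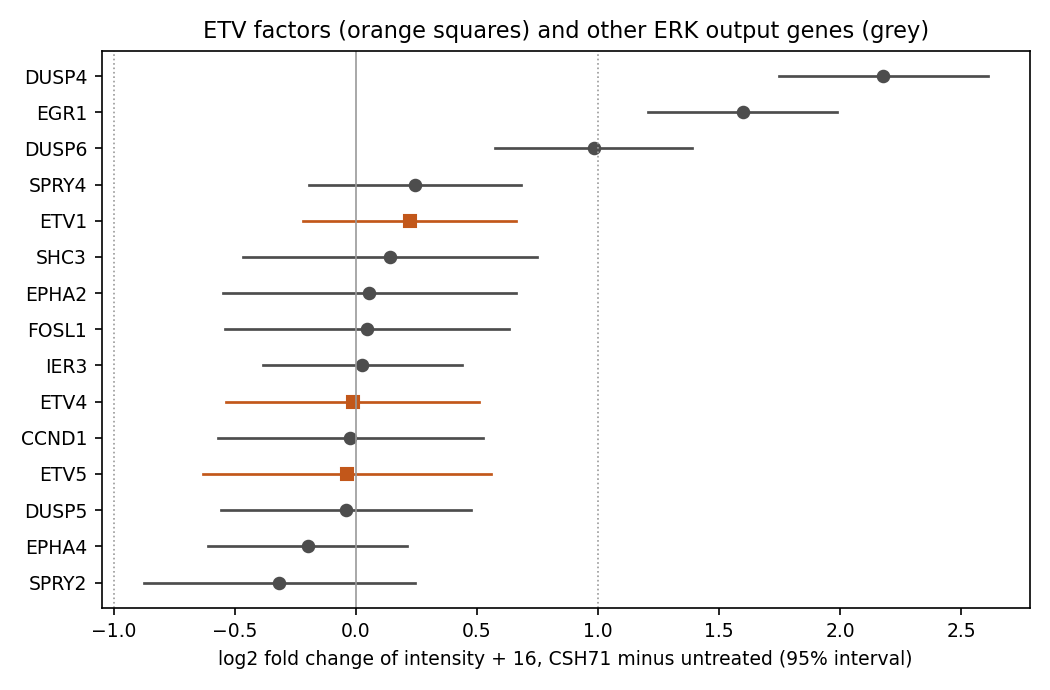
Log2 fold change on the intensity + 16 scale with its 95% interval for ETV1, ETV4 and ETV5 (orange squares) and the 12 measured ERK output genes (grey circles), with dotted lines at 2-fold. DUSP4 at 2.18, EGR1 at 1.60 and DUSP6 at 0.98 stand to the right, and the intervals of the 3 ETV factors all include 0.

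Whether the fold change of an ETV factor differs from that of DUSP4 or DUSP6 was not tested. The 95% intervals can be set side by side: those of ETV1, ETV4 and ETV5 end at 0.66, 0.51 and 0.56, and those of DUSP6 and DUSP4 begin at 0.58 and 1.75.

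Genes that control the PEA3 factors, directly or as partners of their regulators, were not called. Of 14 listed, 10 were measured, with a median log2 fold change of -0.05. Of the 10, limma called 0 in either direction, against 0.0470% of all genes. At an unadjusted p under 0.05 there were 0, against 5.11%. CIC, COP1, DET1 and ERF were taken as the direct regulators. CIC, the repressor, had 193 and 145 untreated and 172 and 148 treated, a log2 fold change of -0.06 ± 0.20. ATXN1, its co-repressor, was at 0.33 ± 0.18, with 952 and 1098 untreated and 1361 and 1222 treated, and the related ATXN1L was at 0.14. DET1, the adaptor of the ligase that degrades these factors, had 313 and 426 untreated and 303 and 249 treated (-0.39 ± 0.21). ERF, an ETS repressor that ERK drives out of the nucleus, had 246 and 255 untreated and 335 and 313 treated (0.35 ± 0.17). Both treated arrays lay above both untreated ones for ERF and ATXN1 and below them for DET1, TRIB2 and CUL4A, which is 5 of 10, where 31.6% of all genes did not overlap. COP1 was not analysed here.

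The receptors and kinases upstream were likewise not called. Of 24 genes of the RAS-ERK cascade 16 were measured, with a median log2 fold change of 0.00133. Of the 16, limma called 0, against 0.0470% of all genes, and 0 had an unadjusted p under 0.05, against 5.11%. RASA3, a GTPase-activating protein that restrains RAS, had the smallest p (0.0656 unadjusted in limma), with 29.8 and 53.4 untreated and 18.9 and 27.3 treated (-0.54 ± 0.24). Both treated arrays lay below both untreated ones. That held for 5 of the 16, against 16.6% of all genes, and 2 lay above, against 15.0%. SOS1, the exchange factor that activates RAS, was at -0.24 ± 0.16, its relative SOS2 at 0.33 ± 0.18 and RASGRP1, the exchange factor of T-cell receptor signalling, at -0.28 ± 0.18. HRAS was at -0.19 and MAPK3, which encodes ERK1, at -0.07. Of 12 receptor tyrosine kinases 9 were measured, with a median of -0.06. Of the 9, 0 were called (0.0470% of all genes) and 0 had an unadjusted p under 0.05 (5.11%). EGFR, the receptor for epidermal growth factor, had the smallest p of these (0.0654 unadjusted in limma), with 25.01 and 13.8 untreated and 29.1 and 35.6 treated (0.46 ± 0.21). Its treated arrays both lay above its untreated ones. EGFR and RASA3 were both dim, at percentiles 7.35 and 10.5 of the genes tested by mean log2 value. KIT, which sustains ETV1 in stromal tumours, had 34.4 and 48.9 untreated and 45.7 and 19.7 treated. FGFR1, a receptor for the growth factors that induce ETV4 and ETV5 in embryos, had 121 and 157 untreated and 148 and 107 treated. In KIT and FGFR1 the groups overlapped, as they did in the other 6 measured receptors, where 31.6% of all genes did not overlap.

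Among the other ETS factors, 0 of the 20 measured of 25 listed were called by limma and 3 had an unadjusted p under 0.05, against 5.11% of all genes. Their median log2 fold change was 0.04. Both treated arrays lay above both untreated ones in 5 of the 20, against 15.0% of all genes. In 4 they lay below, against 16.6%. ETS1, ELF1 and FLI1, which act in T cells, read 2538, 3090 and 1086 in untreated replicate 1. Their log2 fold changes were -0.07 ± 0.17, 0.01 ± 0.19 and -0.16 ± 0.18. The value of ELF4, a factor that restrains CD8 T-cell proliferation, was -0.55 ± 0.18 with 677 and 709 untreated and 513 and 426 treated (limma adjusted p = 0.927, from 0.0626 to 1 over its alternatives). ETV3, an ETS repressor despite the shared name, had 170 and 231 untreated and 307 and 292 treated (0.56 ± 0.20, adjusted p = 0.927). SPIC, a factor of red-pulp macrophages, had 35.4 and 47.5 untreated and 77.9 and 80.0 treated (0.73 ± 0.18, adjusted p = 0.927). These 3 had unadjusted p-values of 0.0182, 0.0266 and 0.00537. The lowest adjusted p of ELF4 came from a fit with an infinite prior, which uses no gene-specific spread. GABPA was not analysed here.

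**Figure D3:**
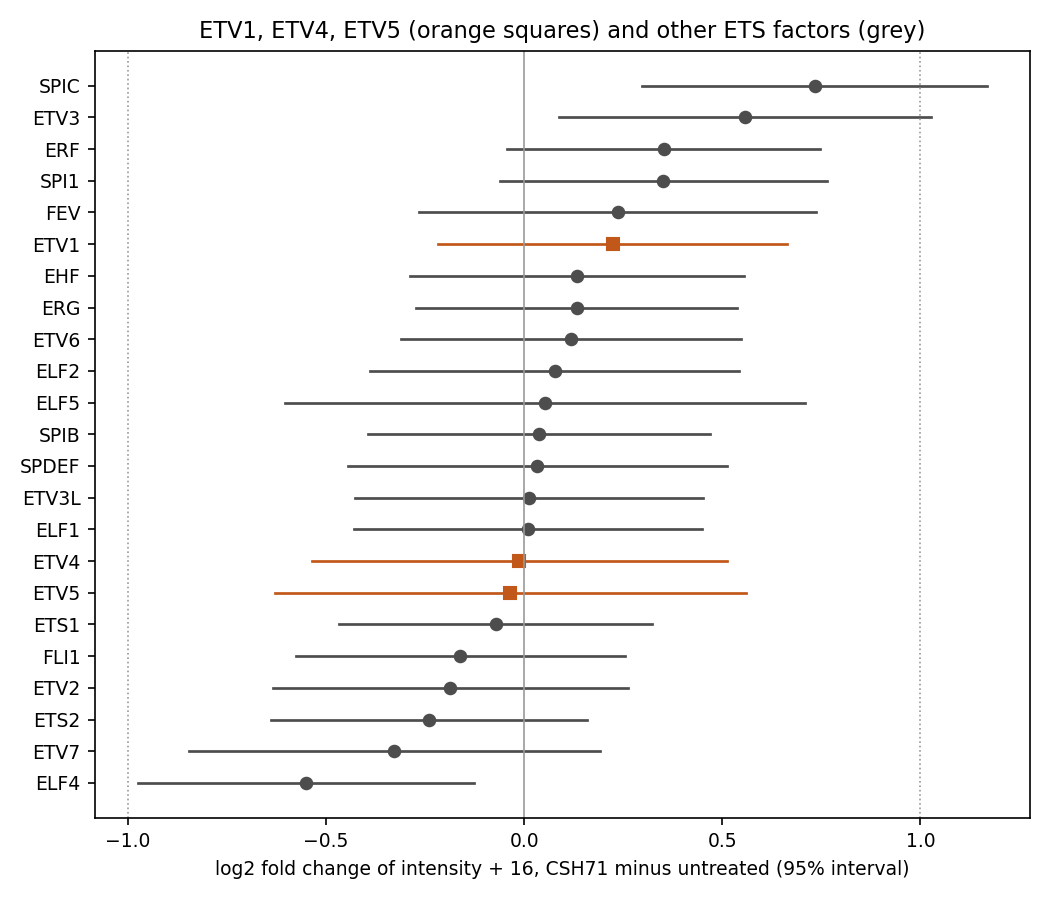
Log2 fold change on the intensity + 16 scale with its 95% interval for ETV1, ETV4 and ETV5 (orange squares) and the 20 other measured ETS factors (grey circles), with dotted lines at 2-fold. ETV1 at 0.22, ETV4 at -0.01 and ETV5 at -0.03 lie between ELF4 at -0.55 and SPIC at 0.73.

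Genes reported as targets of PEA3 factors in other tissues were not called either. Of 18 listed, 12 were measured, with a median log2 fold change of -0.0042. Of the 12, limma called 0, against 0.0470% of all genes, and 1 had an unadjusted p under 0.05, against 5.11%. That 1 was PTGS2, the inducible cyclooxygenase, with 83.9 and 172 untreated and 363 and 278 treated (1.28 ± 0.31, limma adjusted p = 0.927, from 1.66e-05 to 1 over its alternatives). The lowest adjusted p of PTGS2 came from a fit with an infinite prior, which uses no gene-specific spread. The matrix metalloproteases MMP1 and MMP14 were at -0.40 and 0.15, the secreted phosphoprotein SPP1 at -0.42 and TERT, the telomerase subunit, at -0.09.

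The genes whose pattern was most like each factor were taken by the smallest Euclidean distance between log2 values centred on each gene's mean over the 4 arrays, among genes at least as bright as the median gene. For ETV1 these were HECA (distance 0.0216), RB1CC1 (0.0287) and WDR19 (0.0293). For ETV4 they were SLK (0.0333), RPUSD1 (0.0374) and BBS10 (0.0458), and for ETV5 HLA-F-AS1 (0.0638), CST3 (0.0804) and PROM2 (0.0874). Within a distance of 0.25 lay 1626 of 7441 candidate genes for ETV1, 1376 of 7441 for ETV4 and 57 of 7442 for ETV5. These counts follow from the fixed distance and from the brightness limit, which leaves out dim genes such as ETV5 itself, and no likeness particular to a factor is read from them.

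**Figure D4:**
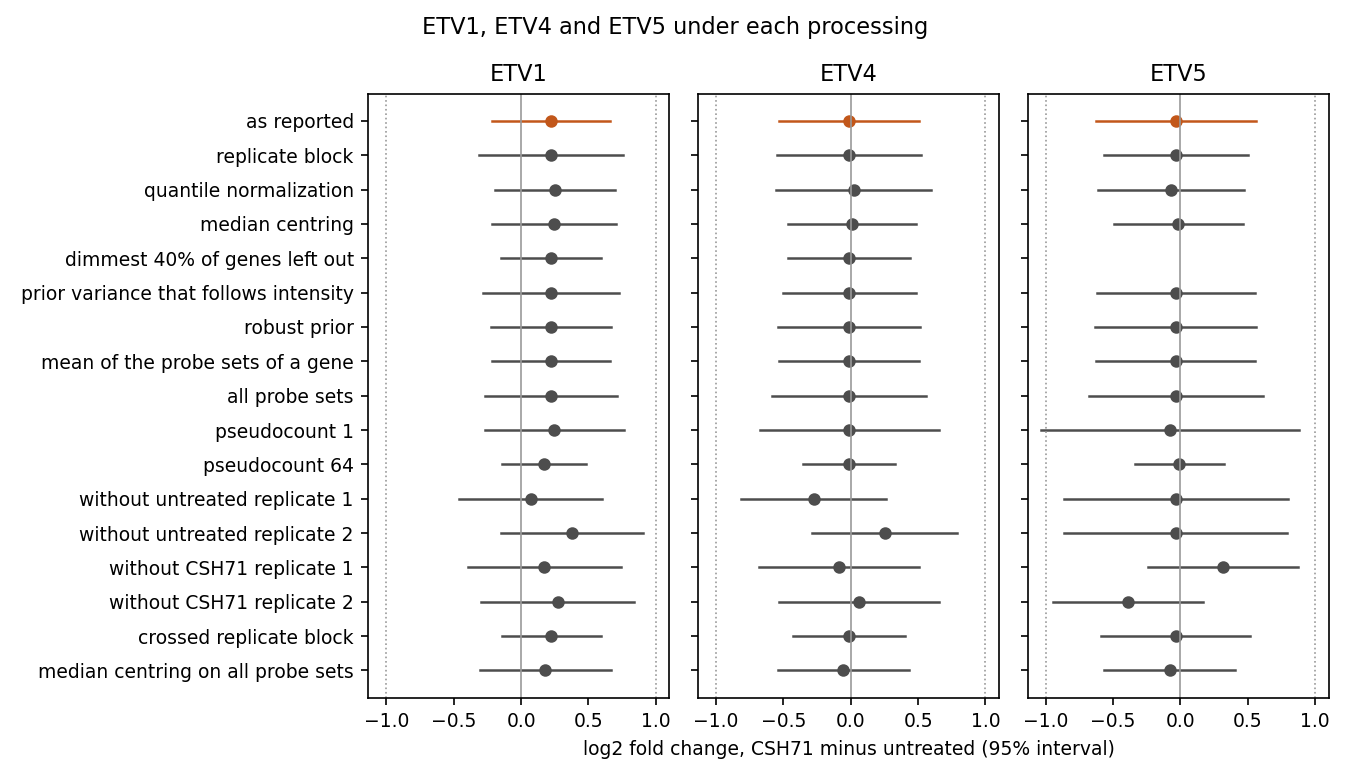
Log2 fold change with its 95% interval for ETV1, ETV4 and ETV5 as reported (orange) and under 16 other ways of processing (grey), with dotted lines at 2-fold; ETV5 was left out with the dimmest 40% of genes. ETV1 was positive in all 16 (0.07 to 0.38), ETV4 ran from -0.28 to 0.25 and ETV5 from -0.39 to 0.32, and all intervals include 0.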

How the data were processed

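The authors deposited a linear intensity for each probe set, made with Affymetrix Expression Console per the submitters' processing notes. How signals were summarised, background-corrected and normalized is not given in the sources used here. No background level or detection call comes with the values, and precision is limited by the number of arrays. Groups and replicate numbers came from the sample titles. Gene names came from the platform annotation, whose 16098 probe sets with 1 symbol all matched RefSeq by entrez identifier; 37519 have none. Genes with several probe sets were represented by the brightest on average.

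The analysis used log2(intensity + 16) without further normalization. limma 3.58.1 (R 4.3.3) fitted 2 group means per gene with default moderated variances, which was tested on simulated data. Beyond the 3 factors, genes could be named by rule where they were among the 8 of a list with the smallest p, direct regulators or T-cell ETS factors; of these, the text describes those with the smallest p and some with a known role beside the 3 factors. The members, the gene lists and the tests were chosen with earlier results of these data known. Alternatives were the replicate block, other normalizations, filters, priors, probe-set rules and pseudocounts, and each array left out. Figures used matplotlib 3.10.9.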

Additional observations from a re-analysis of the deposited data

How the results depend on the processing

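ETV1, ETV4 and ETV5 passed the limma threshold in none of their 16, 16 and 15 alternatives, with adjusted p-values from 0.694, 0.879 and 0.972 upwards. ETV1 kept its sign in all 16. ETV4 turned positive after quantile normalization (0.023) and median centring over the genes tested (0.0083), and ran from -0.28 to 0.25 when each array was left out. ETV5 ran from -0.39 to 0.32 and ETV1 from 0.07 to 0.38 when each array was left out, and in the same way CIC ran from -0.25 to 0.13 and EPHA2 from -0.30 to 0.41. ETV5 has no value with the dimmest 40% of genes left out. The 7 genes called overall became 28 with the replicate number as a block, which left the fold changes of the 3 factors at 0.22, -0.01 and -0.03 and called none of them. They became 27 with median centring, 11 without the dimmest 40% of genes, 143 with a prior that follows intensity and 33 with a pseudocount of 64. There were 0 limma calls with quantile-normalized arrays (966 genes at an unadjusted p under 0.05), 0 over all probe sets (2367) and 0 with a pseudocount of 1 (768). With each array left out, the calls ran from 0 to 29. Each such fit takes the lone array's spread from the other group. The calls were 0 without untreated replicate 1 (794) or untreated replicate 2 (609), 29 without CSH71 replicate 1 and 20 without CSH71 replicate 2, where 12 were higher and 8 lower. The cause of these shifts was not tested. The block, the intensity prior and centring on all probe sets gave an infinite prior, under which limma uses no gene-specific spread. Same-numbered arrays tended weakly to deviate in opposite directions (Pearson correlation of -0.29 across 14884 genes, which are not independent replicates). A crossed pairing, chosen after seeing the data, called 0 genes (1291). Centring on all probe sets, also added then, called 43, of which 32 were higher and 11 lower, against 6 and 1 as reported. Signal over background, which is not given, limits what can be said of the dim ETV5.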
